A study of Rattus norvegicus with 8 samples.

Results

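The genes described here encode the enzymes of cholesterol and fatty acid synthesis together with the sterol-sensing system that controls them. They were chosen by symbol from a list of 33 names and matched to the protein-coding genes of the deposited count table. No measured value entered this rule, but the list was made with earlier results of these data known. Of these 33 symbols 32 were found, as 33 gene models because Elovl6 has a pair of models. Expression of Scd was not analysed here. Both Elovl6 models had 0 to 6 counts in a library and did not pass the filter on low counts, so 31 of the 33 models entered the test, among 16573 tested of 34298 genes in the table. They were divided by role into 8 enzymes of the mevalonate and isoprenoid steps, 12 enzymes of the squalene and sterol steps, 6 genes of the control system with a sterol carrier, and 6 fatty acid genes, of which 5 were tested.

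The brain makes its own cholesterol, because lipoprotein cholesterol of the blood does not cross the blood-brain barrier. Acetyl-CoA is condensed to mevalonate, mevalonate is turned into isoprenoid units, and these are joined to squalene, which is closed to a ring and trimmed to cholesterol. The transcription factors SREBP-2 and SREBP-1, encoded by Srebf2 and Srebf1, switch on most of these enzymes when sterols are low: Scap carries them from the endoplasmic reticulum to the Golgi for cleavage, and the Insig proteins hold them back when sterols are plentiful. In the adult brain astrocytes make much of the cholesterol that neurons use, and oligodendrocytes use large amounts for myelin.

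Orbitofrontal cortex was taken from adult male Sprague-Dawley rats, aged 8 weeks on arrival, 7 days after local infusion of 5 ng of siRNA in 1 µl with the transfection reagent JetPEI. A scrambled control siRNA went into 4 animals (replicates 1, 3, 4 and 5), and the other 4 received one that targeted the backsplice junction of circNrxn3, which is a circular transcript of the neurexin 3 gene (replicates 1 to 4, called knockdown libraries after their titles). All animals had the infusion and the reagent, and no untreated group was analysed here. The comparison asks how mRNA levels in the cortex differ after an siRNA against the circle. These are bulk tissue samples, in which fewer cells of a type and less RNA per cell cannot be told apart. The RNA was selected with poly-T beads and so holds mainly linear mRNA, so the circle itself was not measured and cannot check the labels. The linear host gene Nrxn3 gave 344, 114, 216 and 261 counts with scrambled siRNA and 430, 381, 82 and 268 with circNrxn3 siRNA, in the order of the replicate numbers.

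Library totals ran from 27589883 to 35221782 counts, and 18274 to 20494 genes had at least 1 count. Neuronal markers were present, among them Slc17a7, the vesicular glutamate transporter of cortical excitatory neurons, with a mean of 2254 CPM in the scrambled group and 2066 CPM in the knockdown group. CPM, which scales counts between libraries, serves to compare libraries, while FPKM, which also divides by gene length, serves to compare genes. Scrambled replicates 3 and 4 and knockdown replicate 3 were the libraries lowest in long transcripts, judged by the mean deviation of genes over 3486 bp minus that of genes under 1372 bp. That measure was −0.05 ± 0.09 in scrambled and 0.05 ± 0.09 in knockdown libraries (log2, SD, n = 4 each).

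Sequence upstream of the start site was read from RefSeq (assembly GRCr8) for 26 of the 33 symbols, Scd among them. These gave 27 windows of 250 bases because Srebf1 has a pair of start sites. The sequence is shown because SREBPs bind DNA beside the factors of the CCAAT box and the GC box. The letters of these boxes can be looked for directly. The windows of Mvk and Acly are printed as those of the only members whose groups did not overlap, and those of Hmgcs1 and Msmo1 as strongly expressed genes of the mevalonate and sterol steps. Each line gives the 200 bases before the start, 5′ to 3′ on the gene's strand, with the letters CCAAT or their reverse complement ATTGG in capitals. The windows are Mvk at chr12:47819504-47819703 (reverse strand), Acly at chr10:85963632-85963831 (reverse strand), Hmgcs1 at chr2:53382104-53382303 (forward strand) and Msmo1 at chr16:29746913-29747112 (forward strand), all GRCr8.
Mvk: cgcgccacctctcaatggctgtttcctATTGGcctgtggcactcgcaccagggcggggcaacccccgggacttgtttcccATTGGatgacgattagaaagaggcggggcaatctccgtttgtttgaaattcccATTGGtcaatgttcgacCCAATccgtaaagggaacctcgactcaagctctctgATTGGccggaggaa
Acly: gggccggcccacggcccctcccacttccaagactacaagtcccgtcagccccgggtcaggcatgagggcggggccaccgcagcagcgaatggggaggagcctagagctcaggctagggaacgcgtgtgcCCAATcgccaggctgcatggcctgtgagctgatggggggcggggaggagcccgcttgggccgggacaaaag
Hmgcs1: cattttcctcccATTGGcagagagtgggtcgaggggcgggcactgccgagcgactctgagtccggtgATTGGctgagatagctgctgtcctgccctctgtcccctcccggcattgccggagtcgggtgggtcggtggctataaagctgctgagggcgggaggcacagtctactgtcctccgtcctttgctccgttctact
Msmo1: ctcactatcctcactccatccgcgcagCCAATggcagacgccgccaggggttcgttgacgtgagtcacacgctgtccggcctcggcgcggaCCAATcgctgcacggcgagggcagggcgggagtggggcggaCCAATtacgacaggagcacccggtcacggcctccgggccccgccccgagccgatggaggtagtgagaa

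The 200 bases of Mvk held 5 matches to CCAAT, those of Msmo1 held 3, those of Hmgcs1 held 2 and those of Acly held 1. Over the full 250 bases, counting either strand, 21 of the 27 member windows (77.8%) held CCAAT, against 35.0% of 21851 windows of protein-coding genes. At least 2 matches were in 10 of the 27 member windows and in 10.6% of protein-coding windows. The GC box GGGCGG, which Sp1 binds, was in 22 of the 27 (81.5%), against 38.9% of protein-coding windows. The member windows were also richer in G and C, with a median of 64% against 54%. The sterol element TCACNCCAC was in 0 of the 27 windows and in 0.897% of protein-coding windows. Its shorter form TCACNCCA, which lies within the longer one, was in 2 windows (7.41%), those of Srebf2 and Msmo1, against 2.95%. The E-box CACGTG was in 3 windows, against 6.16%. A match is a description of these letters and not of a bound site, and a window without one says only that the letters are not in it.

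**Figure D1:**
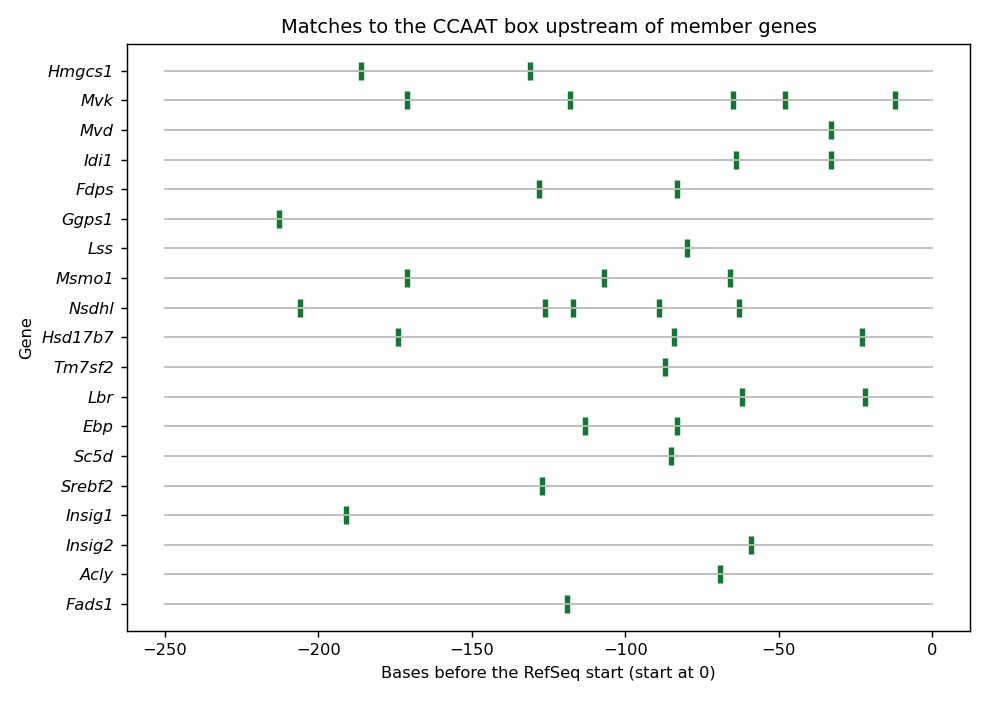
Position of each match to CCAAT, on either strand, in the 250 bases upstream of the RefSeq start of 19 member genes. The horizontal axis is distance from the start in bases and each green mark is 1 match; genes without a match and Srebf1, which has a pair of windows, are not drawn. Mvk and Nsdhl carry more marks than the other genes.

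No gene of the set differed between the siRNA groups at the threshold. By edgeR's quasi-likelihood test with Benjamini-Hochberg adjustment, 0 of the 31 members were called, in either direction, as were 0% of the 16573 genes tested. The smallest adjusted p among members was 0.833. At an unadjusted p under 0.05 there were 0 members higher, where 2.38% of all genes were, and 1 lower, Mvk, where 3.2% were. The members were about evenly split, with 15 fold changes above 0 and 16 below, beside 51.3% above 0 over all genes, and their median log2 fold change was −0.01 against 0.01. The 4 knockdown values lay wholly above the 4 scrambled values in 1 member, Acly (1.82% of all genes did so), and wholly below in 1, Mvk (1.65%). DESeq2 and limma-voom also called 0 members, while DESeq2 called 18 of all genes. The count of members at an unadjusted edgeR p under 0.05 was 0 without scrambled replicate 3 or knockdown replicate 1 (3.41% and 3.24% of all genes then passed, in either direction, against 5.59% with all libraries). It was 2 without scrambled replicate 4 or 5 (3.88% and 4.76%) and 3 without knockdown replicate 3 or 4 (9.11% and 4.66%). The count of members without overlap was 1 without scrambled replicate 3 (5.36% of all genes) and 5 without knockdown replicate 3 (9.12%), against 3.48% of all genes with all libraries.

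The spread between animals set how large a difference could have been missed. For 25 of the 31 members the 95% interval of the fold change, from its standard error with 6 residual degrees of freedom, lay within 1.5-fold in either direction, for 12 within 1.3-fold, and for 30 within 2-fold. The members whose interval reached past 1.5-fold were Acat2, Idi1, Lss, Lbr, Insig2 and Acaca, and only that of Acaca (0.595 to 2.65) passed 2-fold. The median within-group standard deviation of the members was 0.17 on the log2 scale, and 0.24 over all genes tested.

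**Figure D2:**
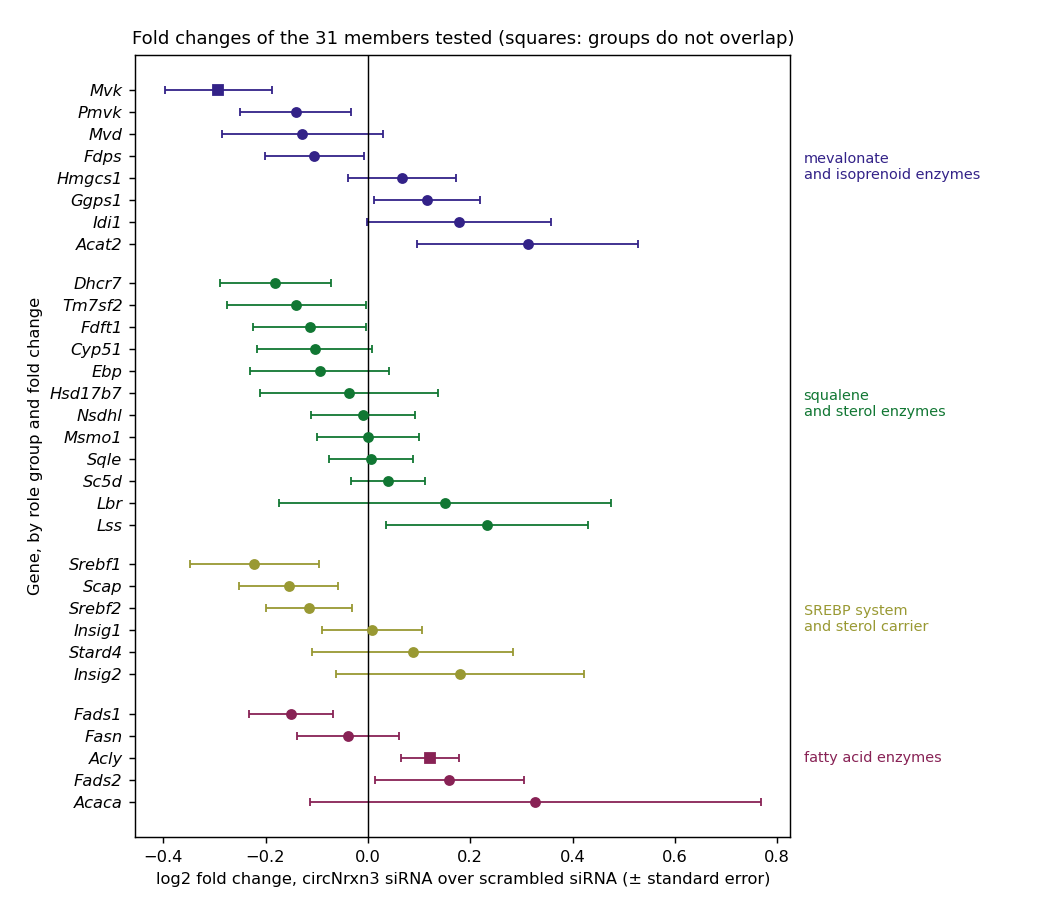
Log2 fold change (circNrxn3 siRNA over scrambled siRNA) ± standard error of the 31 members tested, ordered by role group and then by fold change, with 4 libraries in each group. Squares mark Mvk and Acly, whose groups did not overlap; values run from −0.29 for Mvk to 0.33 for Acaca, and no member passed the adjusted threshold.

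The mevalonate and isoprenoid enzymes covered a wide range of levels. Fdps, which makes farnesyl diphosphate, was highest at 113 FPKM (mean of 8 libraries) and Ggps1, which extends it to the geranylgeranyl form, was lowest at 3.35 FPKM, 33.6 times less. Hmgcs1, the HMG-CoA synthase that feeds the pathway, was at 66.3 FPKM, Pmvk at 58.8 and Mvk at 24.6. Of the 8 genes 4 had fold changes above 0 and 4 below, and their median log2 fold change was −0.02.

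Mvk, mevalonate kinase, which phosphorylates mevalonate (ENSRNOG00000049604, chromosome 12, 47904719 to 47919400, reverse strand, rn6), had the lowest p of the set. With scrambled siRNA it stood at 30.0, 37.9, 32.3 and 29.8 CPM, and with circNrxn3 siRNA at 23.9, 25.2, 27.3 and 29.6 CPM, listed here and further on in the order of the replicate numbers. Every knockdown library lay below every scrambled one, but knockdown replicate 4 and scrambled replicate 5 almost met, and scrambled replicate 3 stood well above the others. The means were 32.5 ± 3.79 and 26.5 ± 2.49 CPM (SD, n = 4 each), and the log2 fold change was −0.29 ± 0.10 (standard error, edgeR unadjusted p = 0.0184, Benjamini-Hochberg adjusted p = 0.833). It was −0.21 without scrambled replicate 3 and −0.18 without the 3 libraries lowest in long transcripts.

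Pmvk, phosphomevalonate kinase (ENSRNOG00000020696, chromosome 2, 188784222 to 188793895, forward strand), carries out the next phosphorylation. It stood at 58.8, 72.4, 72.3 and 68.0 CPM with scrambled siRNA and at 55.3, 54.0, 72.1 and 64.9 with circNrxn3 siRNA. Knockdown replicates 1 and 2 were low and knockdown replicate 3 matched the highest scrambled libraries, so the groups overlapped (log2 fold change −0.14, standard error 0.11, edgeR adjusted p = 0.841). Acat2, the cytosolic thiolase that joins acetyl-CoA units (ENSRNOG00000019189, chromosome 1, 47972399 to 47992653, forward strand), moved the other way in its means. It stood at 8.51, 6.44, 7.18 and 9.55 CPM with scrambled siRNA and at 10.6, 12.3, 6.26 and 10.2 with circNrxn3 siRNA. Of its 4 knockdown libraries 3 lay above all scrambled ones and replicate 3 below them all (log2 fold change 0.31, standard error 0.22, edgeR adjusted p = 0.834).

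**Figure D3:**
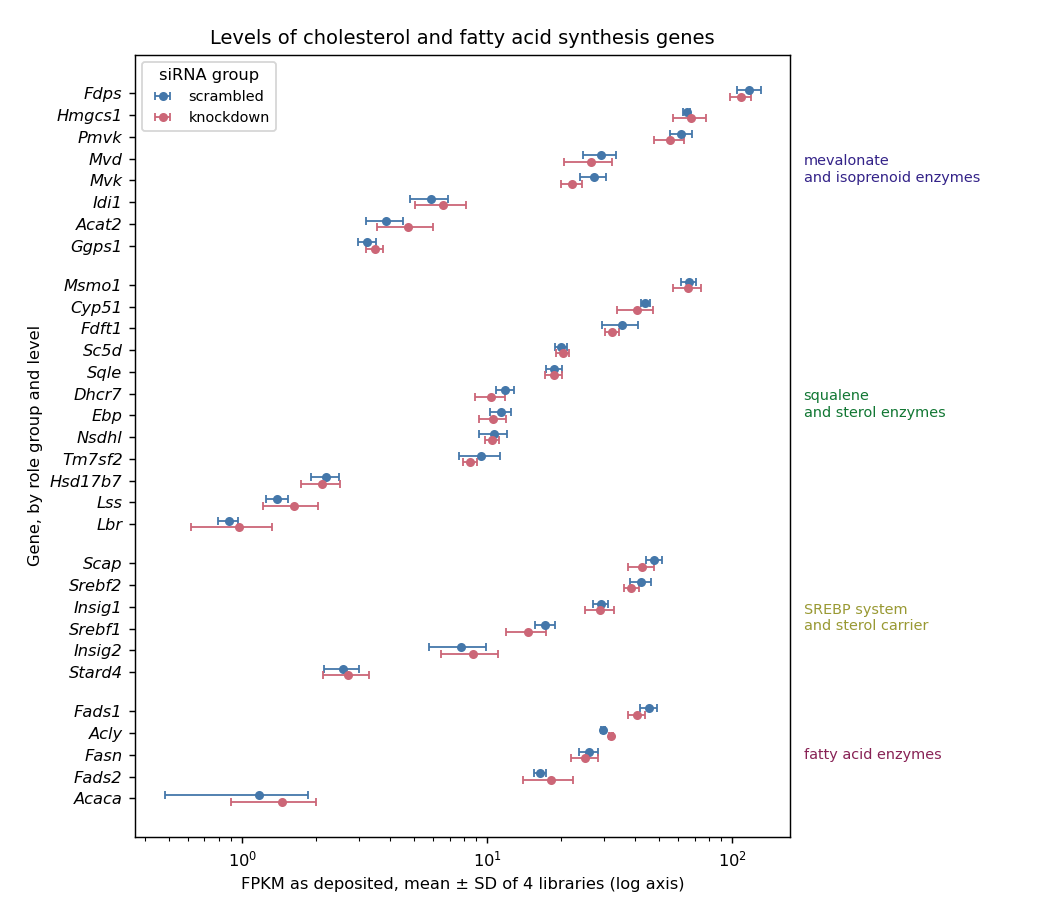
FPKM of the 31 members tested as deposited, mean ± SD of the 4 libraries of each group on a log axis, by role group and level. Fdps is highest at 113 and Lbr lowest at 0.924 over the 8 libraries, and the pairs of points lie close together relative to the range of levels.

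Among the squalene and sterol enzymes, Msmo1, which removes methyl groups from the sterol ring, was highest at 66.0 FPKM, followed by Cyp51, the lanosterol demethylase, at 42.4. Lbr, a nuclear envelope protein with sterol reductase activity, was lowest at 0.924 FPKM. Tm7sf2, the other sterol reductase of the same step, was at 8.96 FPKM. Of the 12 genes 5 had fold changes above 0 and 7 below, and their median log2 fold change was −0.02, and none had an unadjusted p under 0.05. Their smallest was 0.125, for Dhcr7.

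Dhcr7, the reductase that turns 7-dehydrocholesterol into cholesterol (ENSRNOG00000020776, chromosome 1, 217018916 to 217034904, forward strand), stood at 30.3, 30.9, 36.1 and 33.3 CPM with scrambled siRNA and at 27.2, 27.5, 25.7 and 34.7 with circNrxn3 siRNA. Knockdown replicates 1, 2 and 3 were below every scrambled library and replicate 4 was above 3 of the 4. The log2 fold change was −0.18 ± 0.11 (standard error, edgeR adjusted p = 0.833). Lss, the cyclase that forms lanosterol (ENSRNOG00000054549, chromosome 20, 12842884 to 12870497, reverse strand), stood at 6.62, 5.67, 7.03 and 5.85 CPM with scrambled siRNA and at 6.11, 7.87, 5.79 and 9.80 with circNrxn3 siRNA. Its mean in the knockdown group rested on replicates 2 and 4, while replicates 1 and 3 lay among the scrambled values (log2 fold change 0.23, standard error 0.20, edgeR adjusted p = 0.859). Fdft1, squalene synthase (ENSRNOG00000021314, chromosome 15, 46339249 to 46367302, reverse strand), stood at 95.3, 128, 127 and 96.8 CPM with scrambled siRNA and at 101, 101, 98.9 and 113 with circNrxn3 siRNA. The scrambled group was split between a high pair, replicates 3 and 4, and a low pair, with the knockdown libraries between them. Its log2 fold change of −0.11 (standard error 0.11, edgeR adjusted p = 0.868) turned to 0.13 without the 3 libraries lowest in long transcripts, which include that high pair.

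The sterol enzymes differed between libraries of the same group. Knockdown replicate 4 lay above the mean of the 8 libraries in 12 of the 12 sterol enzymes, 8 of the 8 mevalonate enzymes and 27 of the 31 members. Scrambled replicate 4 was high in a like way, in 11 of the 12 sterol enzymes, 6 of the 8 mevalonate enzymes and 20 of the 31 members. Knockdown replicate 3 did so in 1 of the 12 sterol enzymes and 7 of the 31 members. Over all genes tested these libraries, in the same order, were above the mean in 53.0%, 50.2% and 52.8% of genes. The median deviation of the sterol enzymes was 0.16 in scrambled replicate 4, 0.11 in knockdown replicate 4 and −0.15 in knockdown replicate 3 (log2), so libraries of both groups lay at the high end.

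Hmgcs1 and Cyp51 show the pattern in single genes. Hmgcs1 (ENSRNOG00000016552, chromosome 2, 52431601 to 52445055, forward strand) stood at 212, 206, 218 and 205 CPM with scrambled siRNA and at 230.1, 222, 174 and 255 with circNrxn3 siRNA. Cyp51 (ENSRNOG00000007234, chromosome 4, 27175243 to 27194018, forward strand) stood at 147, 140.4, 155 and 149 CPM with scrambled siRNA and at 139, 143, 106 and 162 with circNrxn3 siRNA. In both genes the scrambled libraries lay close together and knockdown replicates 3 and 4 were the lowest and highest of the 8. These 2 genes, with Msmo1, whose level was 103 CPM in knockdown replicate 3 and 141 CPM in replicate 4, were named after their values were seen. Knockdown replicate 3 was the lowest library for 11 of the 31 members, a larger share than the 11.2% of all genes. It was the highest for 0 (10.9% of all genes). Knockdown replicate 4 was the highest for 9 and the lowest for 1 (8.23% and 8.24% of all genes). Scrambled replicate 3 was highest for 9 and lowest for 6, and over all genes it was at these ends for 19.2% and 22.5%.

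**Figure D4:**
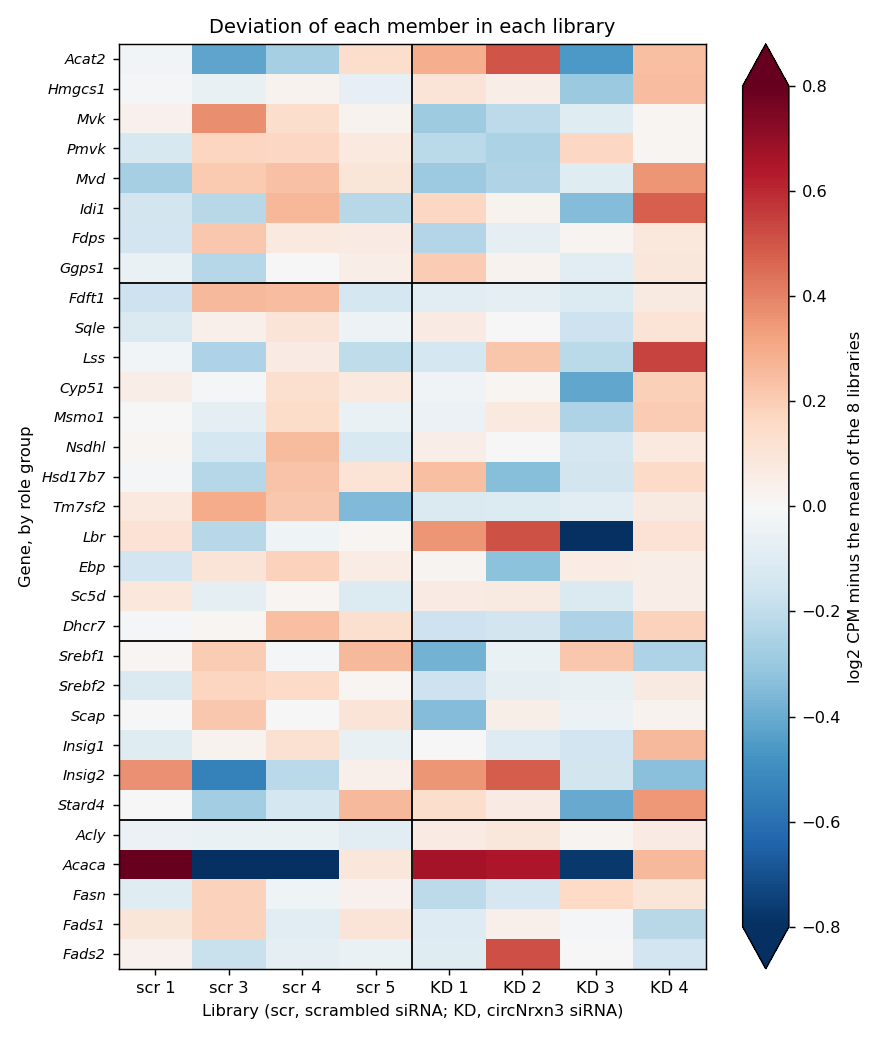
Log2 CPM of each of the 31 members minus its mean over the 8 libraries, by library (columns, replicate numbers as in the titles) and role group (between black lines). Knockdown replicate 3 is blue and knockdown replicate 4 red for most sterol and mevalonate enzymes, while Acaca is low in scrambled replicates 3 and 4 and knockdown replicate 3; values past ±0.8 share the end colours.

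Part of the variation within groups was shared between members. After removal of group means, the median Pearson correlation over the 8 libraries was 0.42 for the 66 pairs of sterol enzymes, of which 43.9% exceeded 0.5. It was 0.22 for all 465 pairs of members (29.2%), 0.20 for the 28 pairs of mevalonate enzymes (39.3%) and 0.08 for the 10 pairs of fatty acid enzymes (0%). Over all pairs of tested genes the median was 0 and 17.4% exceeded 0.5. The highest was 0.98, for Hmgcs1 with Cyp51, and the lowest was −0.91, for Pmvk with Acaca. These values are descriptions without a test, since the genes share the same 8 libraries, their depth and their mix of cells.

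The genes of the control system and the sterol carrier covered a range of levels. Scap, the SREBP escort protein, was at 45.3 FPKM and Srebf2, the factor that acts mainly on cholesterol genes, at 40.5 FPKM. The latter was 2.54 times the level of Srebf1 (15.9 FPKM), whose products act mainly on fatty acid genes. Insig1 was at 29.0 FPKM and Insig2, the other retention protein, at 8.27. Stard4, which carries sterols between membranes, was lowest at 2.64 FPKM. Of the 6 genes 3 had fold changes above 0 and 3 below, and their median log2 fold change was −0.05.

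Srebf1, Srebf2 and Scap had lower means in the knockdown group, and none passed the test. Srebf1 (ENSRNOG00000003463, chromosome 10, 46570996 to 46593009, reverse strand) stood at 71.3, 80.9, 69.9 and 84.4 CPM with scrambled siRNA and at 54.1, 67.8, 81.7 and 59.3 with circNrxn3 siRNA. Of the 4 knockdown libraries 3 were below all scrambled ones, and replicate 3 was above 3 of them. The means were 76.6 ± 7.13 and 65.7 ± 12.1 CPM (SD, n = 4 each), with a log2 fold change of −0.22 and a standard error of 0.13 (edgeR adjusted p = 0.833). The model of Srebf1 overlaps that of Rai1 on the opposite strand, and as the sources used here do not say whether counting used strand, reads of the overlap may be shared.

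Srebf2 (ENSRNOG00000007400, chromosome 7, 123381077 to 123438603, forward strand) stood at 188, 229.8, 227 and 206 CPM with scrambled siRNA and at 182, 194, 196 and 214 with circNrxn3 siRNA. The groups overlapped over most of their range, and the log2 fold change was −0.11 ± 0.08 (standard error, edgeR adjusted p = 0.838). Without the 3 libraries lowest in long transcripts it was 0.0011. Scap (ENSRNOG00000020853, chromosome 8, 118570503 to 118628651, forward strand) stood at 195, 225, 194 and 209 CPM with scrambled siRNA and at 153, 201, 188 and 198 with circNrxn3 siRNA. Knockdown replicate 1 was far below the rest and the other 3 lay near the low end of the scrambled range (log2 fold change −0.15, standard error 0.10, edgeR adjusted p = 0.833).

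Neither Insig gene passed the test. Insig1 (ENSRNOG00000006859, chromosome 4, 342302 to 350515, forward strand), a sterol-responsive target of SREBP itself, stood at 65.9, 71.8, 76.5 and 67.5 CPM with scrambled siRNA and at 70.6, 65.6, 63.2 and 84.1 with circNrxn3 siRNA. The knockdown values spanned the scrambled range on both sides, again with replicate 3 lowest and replicate 4 highest. Its log2 fold change was 0.01 ± 0.10 (standard error, edgeR adjusted p = 0.991), and the sign changed under several other scalings. Insig2 (ENSRNOG00000002478, chromosome 13, 37266312 to 37287458, reverse strand) stood at 10.4, 5.52, 6.91 and 8.26 CPM with scrambled siRNA and at 10.3, 11.3, 7.27 and 6.37 with circNrxn3 siRNA. The values of each group spread over much of the range of all 8 libraries (log2 fold change 0.18, standard error 0.24, edgeR adjusted p = 0.910). The fold change was 0.04 without scrambled replicate 3 or knockdown replicate 2, 0.35 without scrambled replicate 1, and 0.0019 without the 3 libraries lowest in long transcripts.

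Among the 5 fatty acid members tested, Fads1, the delta-5 desaturase, was highest at 43.1 FPKM. Acaca, the acetyl-CoA carboxylase that makes malonyl-CoA, was lowest at 1.31 FPKM. Acly, which splits citrate to supply cytosolic acetyl-CoA to both pathways, was at 30.8 FPKM and Fasn, the fatty acid synthase, at 25.5. Of the 5 genes tested 3 had fold changes above 0 and 2 below, and their median log2 fold change was 0.12.

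Acly (ENSRNOG00000016924, chromosome 10, 88392248 to 88442845, reverse strand) had the tightest values of the set. It stood at 129.9, 129.7, 129.7 and 126 CPM with scrambled siRNA and at 140.7, 143, 137 and 141 with circNrxn3 siRNA. Every knockdown library was above every scrambled one. The means were 129 ± 1.82 and 140.3 ± 2.70 CPM (SD, n = 4 each), and the log2 fold change was 0.12 ± 0.06 (standard error, edgeR unadjusted p = 0.0558, Benjamini-Hochberg adjusted p = 0.833). With the trend of each library with gene length removed it was 0.05, and the groups then overlapped. The test draws each gene's spread toward that of genes of like level, and the within-group standard deviation of Acly itself was 0.02 (log2).

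Fads1 (ENSRNOG00000020480, chromosome 1, 226234074 to 226249138, forward strand) stood at 158, 168, 139 and 159 CPM with scrambled siRNA and at 138, 152, 146 and 127 with circNrxn3 siRNA. The knockdown libraries were lower on average but lay around scrambled replicate 4 (log2 fold change −0.15, standard error 0.08, edgeR adjusted p = 0.833). Fads2, the delta-6 desaturase, which lies near Fads1 (ENSRNOG00000020440, chromosome 1, 226114413 to 226152524, reverse strand), stood at 24.1, 20.7, 22.3 and 22.7 CPM with scrambled siRNA and at 21.9, 33.7, 23.5 and 21.1 with circNrxn3 siRNA. Knockdown replicate 2 stood alone above the other 7 libraries, which lay close together. The log2 fold change of 0.16 (standard error 0.15, edgeR adjusted p = 0.866) became −0.02 without that library.

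Acaca (ENSRNOG00000034013, chromosome 10, 71536533 to 71719910, forward strand) had the largest spread of the set and, with it, the largest fold change. It stood at 14.5, 4.38, 4.50 and 8.63 CPM with scrambled siRNA and at 12.9, 12.7, 4.71 and 9.71 with circNrxn3 siRNA. The 3 low values were those of the 3 libraries lowest in long transcripts, and its model of 6796 bp is longer than the 3486 bp used to mark long genes. Fasn, with a still longer model of 9139 bp, was not low there in the same way. Its deviations were 0.18 and −0.03 in scrambled replicates 3 and 4 and 0.16 in knockdown replicate 3 (log2). The part of gene length in the values of Acaca was not tested. The log2 fold change of Acaca was 0.33 ± 0.44 (standard error, edgeR adjusted p = 0.910). It was 0.03 without those 3 libraries and 0.28 with the length trend removed. With single libraries left out it ran from 0.12, without scrambled replicate 3, to 0.78, without scrambled replicate 1.

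**Figure D5:**
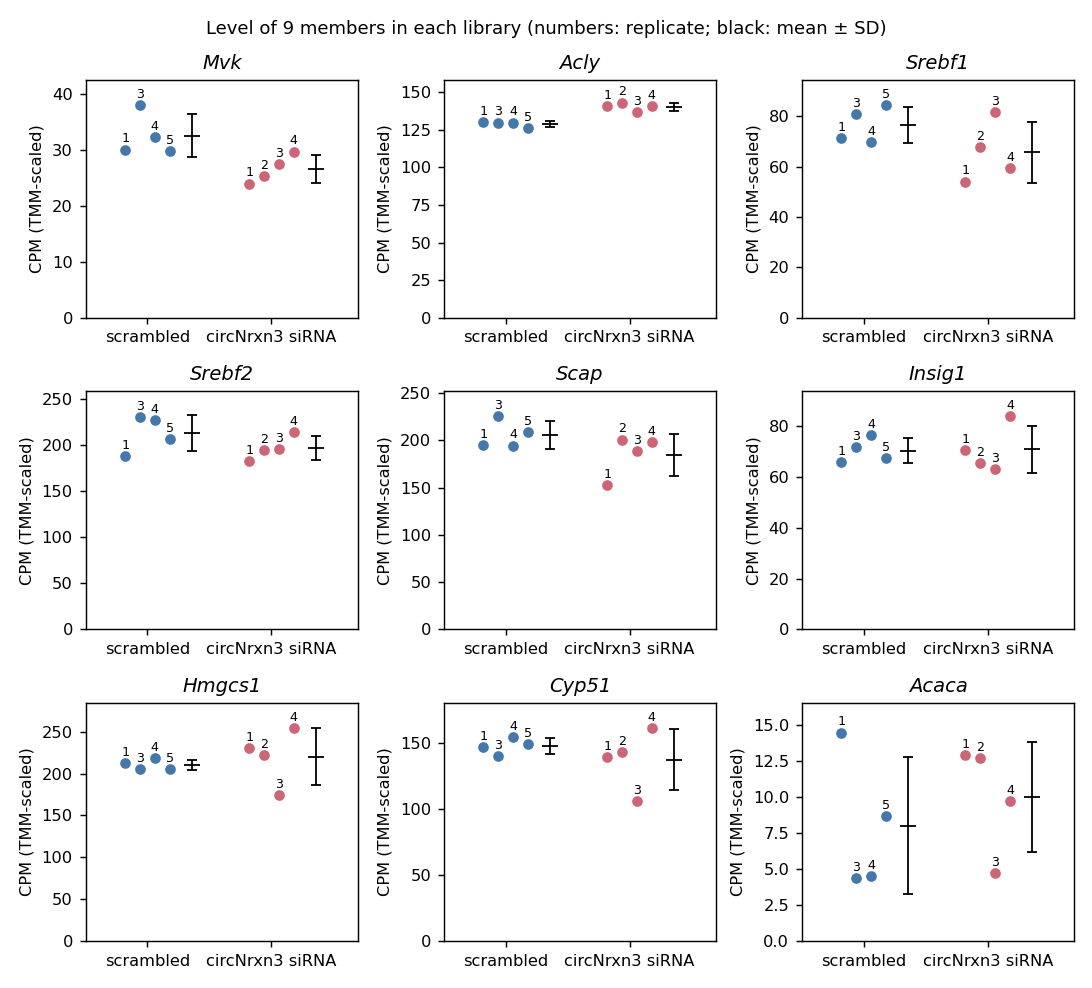
CPM of 9 members in each library (points, with replicate numbers) and the mean ± SD of each group (black), on axes that start at 0. Mvk and Acly have groups that do not overlap, Hmgcs1 and Cyp51 are lowest in knockdown replicate 3 and highest in knockdown replicate 4, and Acaca falls to 4.38 to 4.71 CPM in 3 libraries.

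The 16 members outside the naming rule, Hmgcs1, Cyp51 and Msmo1 among them, had log2 fold changes of −0.14 to 0.18, 8 above 0 and 8 below, and their smallest unadjusted edgeR p was 0.290 (adjusted 0.864). Fasn was at −0.04, Hmgcs1 at 0.07, Cyp51 at −0.10, Msmo1 at 0.00 and Sqle, the squalene epoxidase that is a control point of the pathway, at 0.01. The model of Idi1 overlaps that of Wdr37 on the opposite strand and the model of Tm7sf2 overlaps that of Vps51 on the same strand, so reads in the overlaps may be split or lost.

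Genes that act around the pathway were read from lists made by role. Of 12 genes of sterol turnover and efflux, 0 were called by edgeR after Benjamini-Hochberg adjustment and 0 had an unadjusted p under 0.05, with 7 fold changes above 0, 5 below and a median of 0.10. The smallest p was that of Cyp46a1, the neuronal enzyme that turns cholesterol into 24-hydroxycholesterol for export. It stood at 444, 492, 463 and 473 CPM with scrambled siRNA and at 365, 431, 433 and 434 with circNrxn3 siRNA. All 4 knockdown libraries lay below every scrambled one, replicate 1 by the most (1.65% of all genes were lower without overlap). The log2 fold change of Cyp46a1 was −0.17 (standard error 0.08, edgeR unadjusted p = 0.0527, adjusted 0.833). Abcg1, of the same list, separated the other way (1.82% of all genes did so). It stood at 46.0, 38.3, 47.2 and 46.1 CPM with scrambled siRNA and at 49.2, 48.7, 47.7 and 49.5 with circNrxn3 siRNA. Its log2 fold change was 0.14 (standard error 0.08, edgeR adjusted p = 0.833). Mylip, a ubiquitin ligase for lipoprotein receptors, went from 12.6 ± 1.39 to 14.8 ± 1.39 CPM, with overlap (SD, n = 4 each, log2 fold change 0.23, edgeR adjusted p = 0.833).

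Of 8 genes of SREBP processing and sterol-regulated degradation, edgeR called 0, and 1 was higher at an unadjusted p under 0.05. Fold changes were above 0 in 7 and below in 1, with a median of 0.16 (log2). The median deviation of the list was −0.10 and −0.14 in scrambled replicates 3 and 4 and −0.13 in knockdown replicate 3. These are the libraries lowest in long transcripts. In the other libraries it ran from −0.08 to 0.19 (log2), and the part of gene length was not tested. Rnf145, an endoplasmic reticulum ubiquitin ligase, averaged 77.0 ± 4.91 CPM with scrambled and 86.2 ± 4.45 CPM with circNrxn3 siRNA (SD, n = 4 each, log2 fold change 0.16, standard error 0.07, edgeR unadjusted p = 0.0449, adjusted 0.833). The related ligase Rnf139 was at 20.1 ± 0.923 and 22.4 ± 1.52 CPM, and its groups did not overlap (log2 fold change 0.16, edgeR adjusted p = 0.833). Of all genes, 1.82% were higher in the knockdown group without overlap.

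Of 12 genes of isoprenoid use, edgeR called 0, and 1 was higher at an unadjusted p under 0.05, with 5 above 0, 7 below and a median of −0.04. Pdss1, which makes the side chain of ubiquinone, was at 8.27 ± 1.37 and 10.7 ± 1.60 CPM (log2 fold change 0.38, standard error 0.17, edgeR unadjusted p = 0.0452, adjusted 0.833). Rabggta, a subunit of the enzyme that prenylates Rab proteins, had a log2 fold change of 0.09 (edgeR adjusted p = 0.834). Of 18 tested genes of other fatty acid synthesis and elongation, edgeR called 0, and 1 was higher at an unadjusted p under 0.05, with 13 above 0, 5 below and a median of 0.05. Elovl4, an elongase of very long fatty acids, was at 49.7 ± 2.26 and 57.4 ± 6.72 CPM (log2 fold change 0.21, standard error 0.09, edgeR unadjusted p = 0.0439, adjusted 0.833). Fads6, which belongs to the desaturase family, had a log2 fold change of 0.27 (edgeR adjusted p = 0.833). Scd2, a stearoyl-CoA desaturase, was at 270 FPKM (mean of 8 libraries), above every member, with a log2 fold change of 0.11 (edgeR adjusted p = 0.834).

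Markers of the cells that make and use cholesterol were read beside these genes. All 10 astrocyte markers were detected, and their summed level was 4008 to 4335 CPM in scrambled and 3574 to 3902 CPM in knockdown libraries, without overlap. Of these markers 3 had fold changes above 0 and 7 below, and their median log2 fold change was −0.11. None was called by edgeR, and 2 were lower at an unadjusted p under 0.05. No astrocyte marker taken alone separated the groups. The lower sum came mostly from S100b, Aldoc and Gfap, whose mean CPM went from 1501 to 1335, 1199 to 1080 and 576 to 428. The other astrocyte markers had log2 fold changes from −0.28 (Aldh1l1) to 0.20 (Gjb6), with Slc1a3 at −0.05 and Gja1 at 0.01. All 14 oligodendrocyte markers had fold changes above 0, with a median of 0.17. None was called by edgeR and 1 was higher at an unadjusted p under 0.05, and their summed level ran from 2160 to 5007 CPM in scrambled and from 2730 to 4413 CPM in knockdown libraries. Knockdown replicates 3 and 4, which were opposite in the sterol enzymes, had summed levels of 4413 and 4046 CPM for oligodendrocyte markers, 3902 and 3574 CPM for astrocyte markers and 342 and 239 CPM for microglia markers. Their sums for the list of excitatory neuron markers, which also holds the general neuronal genes Snap25 and Rbfox3, were 5489.9 and 5957 CPM. The 4 red blood cell markers were all below 0 with a median of −1.13, each with an unadjusted edgeR p under 0.05 and none called. The part of these cell types in the members' values was not tested.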

How the data were processed

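Gene counts were used as deposited, as whole numbers with no normalization. A second table that the authors deposited holds FPKM for those genes. The submitters' processing notes name build rn6, featureCounts 1.5.0-p3, StringTie 1.3.3b, HISAT2 2.0.5 and fastp, without roles or settings, and no source used here says whether strand was used in counting. Libraries were poly-T selected and strand-marked per the labels' protocols. Columns were assigned by sample title (0 had no sample). All 34298 genes (11107 at 0 counts) entered 1 analysis in R 4.3.3. After filterByExpr (minimum count 10) and TMM scaling, edgeR 4.0.16 quasi-likelihood tests with robust dispersions and Benjamini-Hochberg adjustment (2-sided, threshold 0.05) compared 4 knockdown with 4 scrambled libraries, which the labels call biological replicates. P-values and standard errors rest on the spread between these samples, with each gene's spread drawn toward that of genes of like level. No pair of libraries within a group agreed within sampling noise. The procedure was tested on simulated data. Alternatives used DESeq2 1.42.0, limma 3.58.1 on voom weights or on log2(FPKM + pseudocount) with pseudocounts of 1 and 0.1, other scalings and filters, a replicate block, removal of a gene length trend, and each library left out. The members and lists were chosen with earlier results of these data known. Values per library are given for the 3 members of smallest p in each role group and members whose groups did not overlap. They are also given for the control system and the largest fold change in each direction. Hmgcs1 and Cyp51 were added after their values were seen. The 2 genes of smallest p stand for each further list, and Abcg1 and Scd2 were added to these after their values were seen. Of the members' symbols, 26 matched the RefSeq promoter table, and Acaca, Elovl6, Fasn, Fdft1, Pmvk, Sqle and Stard4 did not.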

Additional observations from a re-analysis of the deposited data

Results flagged for a closer look

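In 5 of 62 groups of 4 libraries examined (31 members in each siRNA group), 1 library lay far from the other 3, by Dixon's ratio of the gap to the range. Chance alone flags about 1 in 20 groups when groups are independent, but these groups share the same libraries. Whether the number flagged exceeds chance was not tested. Idi1, the isomerase of the isoprenoid unit, was at 20.9 CPM in scrambled replicate 4, with the other scrambled libraries at 14.9 to 15.7. Tm7sf2 was at 21.4 CPM in knockdown replicate 4, against 18.8 to 19.2 in the others. Ebp, the sterol isomerase, was at 9.20 CPM in knockdown replicate 2, against 11.8 to 12.1. Sc5d, the sterol desaturase, was at 91.3 CPM in knockdown replicate 3, against 103 to 104. Acly was at 126 CPM in scrambled replicate 5, where the other scrambled libraries were at 129.7 to 129.9, so the gap is small in size and large only beside their closeness.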

How the results depend on the processing

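In all 21 alternatives 0 members were called, with a smallest adjusted p between 0.288 and 1.00 in those that gave one. The members' median log2 fold change ran from −0.08 to 0.05. Of the 15 members that the naming rule gives by library, 11 kept their direction in every alternative. Over all genes, 18 were called by DESeq2, 3 without the 3 libraries lowest in long transcripts, and 0 to 1 with each library left out in turn; the cause was not tested. The count of members at an unadjusted p under 0.05, 1 in the report, was 2 with upper-quartile scaling, DESeq2, non-robust dispersions, log2(FPKM + 1) without a filter or the 3 libraries left out (3.47% to 6.34% of all genes), and 0 to 3 with each library left out (3.24% to 10.1%). Members without overlap numbered 0 with the length trend removed (2.58% of all genes), 9 of 31 without the 3 libraries (19.6%), and 1 to 5 with each library left out (5.08% to 9.93%). Leaving out these 3 libraries was chosen after seeing the data and leaves 2 scrambled and 3 knockdown libraries; there Fdft1 reversed to 0.13 and Srebf2 to 0.0011. Insig1, at 0.01 in the report, was −0.0048 with RLE scaling and with DESeq2, −0.0094 on log2(FPKM + 1) with and without a filter, −0.0099 on log2(FPKM + 0.1), −0.0407 with the length trend removed, and −0.0841 to 0.0505 with each library left out. Fads2 was −0.0153 to 0.233 with each library left out. Log2 fold changes that moved by over 1.5 times with a library left out were also those of Acat2 (0.19 to 0.47), Lss (0.07 to 0.32), Pmvk (−0.24 to −0.08), Dhcr7 (−0.28 to −0.13), Fdft1 (−0.19 to −0.05), Scap (−0.20 to −0.07), Srebf1 (−0.35 to −0.14), Insig2 and Acaca.

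With the replicate numbers as a replicate block, 5 members had an unadjusted p under 0.05 (Mvk, Fads1, Scap, Srebf1 and Tm7sf2, all lower), as did 10.1% of all genes against 5.59% without it, and 0 were called, and Fads2 reversed to −0.0099. The smallest edgeR adjusted p over all genes was 0.113 with the block and 0.833 without it. Same-numbered libraries had correlations of their deviations of 0.37, 0.30 and 0.09 for numbers 1, 3 and 4. Each of these knockdown libraries correlated best with the scrambled library of its number, while scrambled replicate 4 correlated best with knockdown replicate 3 (0.22). The sources used here do not say that the numbers pair animals, so the main test did not use them. Whether they do was not settled. With 4 libraries in each group, only 12 of the 31 members had an interval within 1.3-fold, and low genes such as Lbr and Acaca were measured least precisely.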
